A study of Mus musculus with 114 samples.

Results

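Isolated adipocytes of mice fed a high fat diet (HFD) for 34 weeks were compared with those of mice fed the same diet for 20 weeks, so the comparison covers the late stage of the HFD arm. The members were the genes with a mean log2(CPM + 1) above 2 over the 12 mice, 6 of each time, where CPM are reads scaled to the same total in each mouse, and 10629 of the 29132 genes met this rule. All mice were male C57BL/6J, which started the diet at 6 weeks of age, and RNA was taken from the floating adipocyte fraction of perigonadal white adipose tissue (PGWAT) after collagenase digestion. The 20 week mice were 26 weeks old and the 34 week mice 40 weeks old at harvest, so age, weeks on the diet and the harvest itself cannot be told apart within the HFD arm. The question asked was which transcripts still moved in adipocytes after 20 weeks of HFD. Mice on a chow diet (CD) for the same times, 6 at 20 and 8 at 34 weeks, gave the change with time without HFD. The earlier level came from 6 HFD and 6 CD mice at 8 weeks.

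White adipocytes store triglyceride in a single droplet and release fatty acids by lipolysis, under the control of insulin and of catecholamines acting through Adrb3. During a long HFD the perigonadal depot enlarges its cells, is entered by macrophages that surround dying adipocytes, and lays down extracellular matrix. Stressed or inflamed adipocytes themselves make chemokines such as Ccl2 and cytokines such as Il6, many of them under the transcription factors NF-kB and AP-1. In bulk RNA of a cell fraction, fewer cells of a type and less RNA per cell cannot be told apart.

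The 12 libraries held 10714545 to 12271651 reads on genes at 34 weeks and 13159018 to 14961360 at 20 weeks, ranges that did not overlap, and 1 read equals 0.0668 to 0.0933 CPM. The summed CPM of 11 adipocyte markers, led by Fabp4 and Car3, was 37080 to 50575 at 20 weeks and 23261 to 56735 at 34 weeks. Macrophage markers were present in every mouse, and all 15 of them had a mean above 1 CPM. Their sum was 6041 to 12821 CPM (median 9417) at 20 weeks and 7216 to 21987 (median 15452) at 34 weeks. Mice 2 to 5 of the 34 week group lay above every 20 week mouse in macrophage markers, and mice 2, 3 and 4 also below every 20 week mouse in adipocyte markers, whereas mouse 6 had the highest adipocyte and the lowest macrophage sum of its group. T cell and NK cell markers summed to at most 5.31 CPM, epididymis and testis markers to at most 18.8 CPM, and the neutrophil marker Ly6g had no read. Lipid-associated macrophage markers summed to a median of 9571 CPM at 20 weeks and 13201 CPM at 34 weeks, endothelial markers to 441 and 263 CPM, and progenitor and fibroblast markers to 13949 and 10111 CPM. These 3 lists overlapped between the times, and 88.8% of the fibroblast sum came from Gsn, which adipocytes also express.

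**Figure D1:**
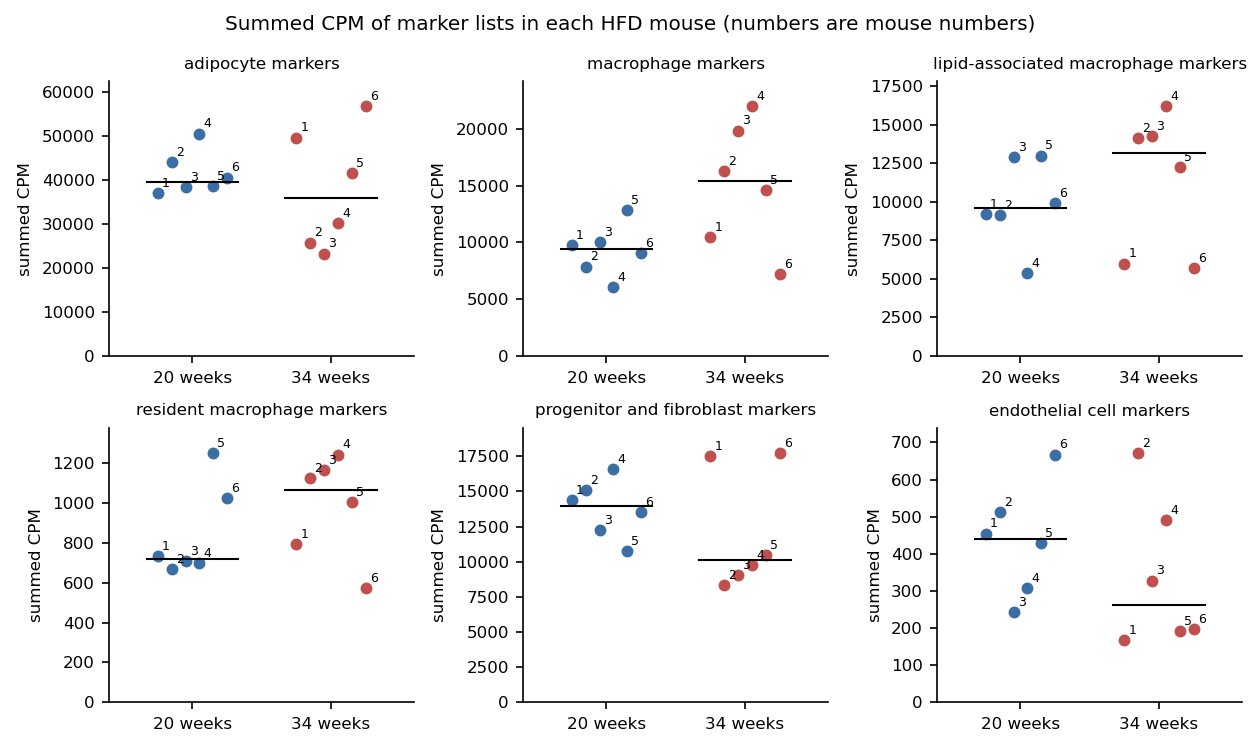
Summed CPM of 6 marker lists in each HFD mouse, with mouse numbers beside the points and the median of the 6 mice as a line. Macrophage marker sums were 9417 CPM in the median 20 week mouse and 15452 CPM in the median 34 week mouse, with mouse 6 of the 34 week group at 7216 CPM.

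The mice also differed more from each other at the later time. The SD between mice of log2(CPM + 1), averaged over genes, was 0.1996 at 20 weeks and 0.3406 at 34 weeks, and it was larger at 34 weeks in 85.2% of genes. Each 34 week mouse lay 0.291 to 0.519 log2 units from the mean of the others of its group, and each 20 week mouse 0.187 to 0.395, with mouse 4 the farthest of the 20 week group. A first principal component with 42.7% of the variance separated the times, from -30.8 to -16.3 at 20 weeks and from 7.34 to 43.3 at 34 weeks. The second, with 31.1%, spread the 34 week mice from -35.2 to 40.1, mice 2, 3 and 4 at the low end and mice 1 and 6 at the high end, and the 20 week mice from -12.6 to 22.3.

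Between 20 and 34 weeks of HFD, 3064 of 10629 genes (28.8%) passed the test, of which 1843 (17.3%) rose and 1221 (11.5%) fell. The test was limma's two-sided moderated test on log2(CPM + 1) with Benjamini-Hochberg adjustment over all genes and a threshold of 0.05, and genes that pass it are called differentially expressed genes (DEGs). The falls were the larger changes, since 356 DEGs fell and 54 rose by at least 2-fold. In 804 genes (7.56%) every 34 week mouse lay above every 20 week mouse, and in 465 (4.37%) below. The split of the DEGs depended on scaling: it was 1135 higher and 1503 lower after TMM factors, 1065 and 1553 after median-of-ratios factors, and 1310 and 1405 with edgeR's quasi-likelihood test on the reads recovered from the CPM. Without mouse 2 of the 20 week group 2039 genes passed, 1140 higher and 899 lower.

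Several of the genes that fell most are known for roles in inflammation and stress. Rnd1, a small GTPase that loosens the actin cytoskeleton (chromosome 15, 98669205 to 98677461 on GRCm38), ranged from 64.6 to 140.1 CPM (median 128) at 20 weeks and from 5.88 to 8.96 CPM (median 8.47) at 34 weeks, a log2 fold change of -3.64 (SE 0.188, adjusted p = 5.02e-07). The highest 34 week mouse lay far below the lowest 20 week mouse. Gfpt2, an enzyme of the hexosamine pathway (chromosome 11, 49794155 to 49838620), ranged from 122 to 255 CPM (median 162) at 20 weeks and from 7.37 to 49.6 CPM (median 19.5) at 34 weeks, a log2 fold change of -3.21 (SE 0.423, adjusted p = 0.000697). Fosl1, a subunit of the AP-1 transcription factor (chromosome 19, 5447698 to 5455938), ranged from 58.5 to 126 CPM (median 75.4) at 20 weeks and from 4.95 to 20.9 CPM (median 8.65) at 34 weeks, a log2 fold change of -3.06 (SE 0.321, adjusted p = 0.000182). All 6 mice of the later time lay below all 6 of the earlier time in both.

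Secreted and surface signals made up most of the remaining large falls. Ptx3, a soluble pattern recognition protein (chromosome 3, 66219887 to 66225806), was the most abundant of them, from 399.8 to 873 CPM (median 622) at 20 weeks and from 64.3 to 151 CPM (median 70.9) at 34 weeks, a log2 fold change of -2.88 (SE 0.237, adjusted p = 5.98e-05). Csf1, the growth factor of macrophages (chromosome 3, 107741048 to 107760469), ranged from 146 to 318 CPM (median 182) at 20 weeks and from 14.8 to 91.0 CPM (median 26.3) at 34 weeks, a log2 fold change of -2.78 (SE 0.354, adjusted p = 0.000568). The 34 week mice were low without exception in both genes, although mouse 6 kept a Csf1 level of 91.0 CPM, far above the other 5. Cxcl3, a chemokine for neutrophils (chromosome 5, 90786101 to 90788093), ranged from 13.4 to 37.6 CPM (median 21.1) at 20 weeks and from 0.373 to 8.03 CPM (median 2.00) at 34 weeks, a log2 fold change of -2.87 (SE 0.381, adjusted p = 0.000697). Ccl5, which attracts T cells and monocytes (chromosome 11, 83525778 to 83530518), ranged from 5.02 to 41.4 CPM (median 21.8) at 20 weeks and from 0.575 to 3.92 CPM (median 1.55) at 34 weeks, a log2 fold change of -2.92 (SE 0.447, adjusted p = 0.00130). Tnfsf4, the ligand of the T cell receptor OX40 (chromosome 1, 161395438 to 161418206), ranged from 7.83 to 37.6 CPM (median 21.5) at 20 weeks and from 0.0822 to 3.48 CPM (median 1.43) at 34 weeks, a log2 fold change of -3.21 (SE 0.445, adjusted p = 0.000829). All 34 week mice lay below all 20 week mice in these 3 genes, and the lowest values were those of a few reads or a single one. Their 34 week medians lay below the filter, so these 3 genes met it through their 20 week values. Sele, the endothelial adhesion molecule E-selectin, changed by -3.00 (adjusted p = 0.00143), the interferon-induced Ifi205 by -2.94 (adjusted p = 0.000113), the matrix protease Adamts4 by -2.93 (adjusted p = 0.000869) and the heat shock protein Hspa1b by -2.79 (adjusted p = 0.00566), each without overlap of the mice. Hspa1b has a near-identical neighbour, Hspa1a, at -1.68 (adjusted p = 0.0538), and Ifi205 belongs to a family of close copies, so the reads of both may be split uncertainly. Endothelial marker sums, the cell type of Sele, overlapped between the times at 244 to 667 and 167 to 672 CPM, and their part in its change was not tested.

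The stretches of 250 bases before the transcription start are shown for 4 of these genes and for Il6, a cytokine that also fell, because they hold the short motifs bound by NF-kB (searched on both strands as GGG, 2 bases of any kind and TTTCC) or AP-1 (TGANTCA, which reads the same on both strands), in capitals. They are RefSeq sequences on GRCm38.p6, 5′ to 3′ on the strand of the gene.

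Cxcl3, chr5:90785851-90786100, plus strand: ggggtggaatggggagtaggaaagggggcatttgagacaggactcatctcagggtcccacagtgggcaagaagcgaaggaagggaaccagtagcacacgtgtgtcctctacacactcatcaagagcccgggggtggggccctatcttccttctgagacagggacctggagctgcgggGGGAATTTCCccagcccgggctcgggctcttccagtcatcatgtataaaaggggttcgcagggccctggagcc
Csf1, chr3:107760470-107760719, minus strand: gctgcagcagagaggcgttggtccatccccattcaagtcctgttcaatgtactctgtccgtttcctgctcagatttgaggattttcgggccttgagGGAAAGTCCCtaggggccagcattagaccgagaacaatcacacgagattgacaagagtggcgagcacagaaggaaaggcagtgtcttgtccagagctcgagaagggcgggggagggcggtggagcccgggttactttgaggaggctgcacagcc
Il6, chr5:30012864-30013113, plus strand: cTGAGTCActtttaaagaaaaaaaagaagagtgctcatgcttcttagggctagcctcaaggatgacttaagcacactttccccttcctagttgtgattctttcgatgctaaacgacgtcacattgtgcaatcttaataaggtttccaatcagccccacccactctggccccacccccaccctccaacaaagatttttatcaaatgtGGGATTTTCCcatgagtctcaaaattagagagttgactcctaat
Sele, chr1:164047984-164048233, plus strand: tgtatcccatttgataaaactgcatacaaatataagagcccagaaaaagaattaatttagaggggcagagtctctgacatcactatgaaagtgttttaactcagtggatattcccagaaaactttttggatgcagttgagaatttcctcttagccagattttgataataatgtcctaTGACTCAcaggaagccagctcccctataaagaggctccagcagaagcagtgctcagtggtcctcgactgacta
Gfpt2, chr11:49793905-49794154, plus strand: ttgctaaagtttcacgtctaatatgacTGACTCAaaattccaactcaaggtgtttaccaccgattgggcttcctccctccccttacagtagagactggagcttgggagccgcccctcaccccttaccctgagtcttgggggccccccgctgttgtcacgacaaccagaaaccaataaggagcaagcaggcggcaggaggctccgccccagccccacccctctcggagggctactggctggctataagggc

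In Cxcl3 and Il6 the NF-kB letters begin 73 and 44 bases before the start, and in Csf1 154 bases before it on the opposite strand. The AP-1 letters begin 73 bases before the start in Sele, 223 in Gfpt2 and 249 in Il6. Over all 27025 genes with a promoter in the table, 1.4% held the NF-kB letters and 6.87% TGANTCA in this window. Among genes tested here, the NF-kB letters were in 20 of 966 promoters of DEGs that fell (2.07%), 18 of 1490 of those that rose (1.21%) and 85 of 6057 of the others (1.4%). TGANTCA was in 6% of the promoters of DEGs that fell, 3.49% of those that rose and 4.26% of the others. TGACGTCA, the cAMP response element, was in 3.11%, 2.75% and 2.79%, and in 1.62% of all promoters. Of the 12 largest falls 7 had a promoter in the table, and 2 of them held the NF-kB and 2 the AP-1 letters, while none of the 10 promoters of the 12 largest rises held either.

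The largest rise was in G0s2, the inhibitor of the lipase Pnpla2 that starts lipolysis. G0s2 (chromosome 1, 193272160 to 193273188) ranged from 11.9 to 35.1 CPM (median 18.2) at 20 weeks and from 77.9 to 238 CPM (median 152) at 34 weeks, a log2 fold change of 2.85 (SE 0.294, adjusted p = 0.000168). Every 34 week mouse had more than the highest 20 week mouse. Rasd1, a small GTPase induced by glucocorticoids (chromosome 11, 59963181 to 59964944), ranged from 11.2 to 27.1 CPM (median 13.96) at 20 weeks and from 41.1 to 122.7 CPM (median 84.5) at 34 weeks, a log2 fold change of 2.30 (SE 0.250, adjusted p = 0.000217). Osm, a cytokine of the Il6 family made by myeloid cells (chromosome 11, 4236785 to 4241026), ranged from 2.44 to 12.2 CPM (median 6.00) at 20 weeks and from 12.8 to 45.4 CPM (median 26.9) at 34 weeks, a log2 fold change of 2.04 (SE 0.398, adjusted p = 0.00442). Fos, the partner of Jun in AP-1 (chromosome 12, 85473890 to 85477274), was high at both times, from 428 to 978 CPM (median 750.1) at 20 weeks and from 1056 to 2340 CPM (median 1700) at 34 weeks, a log2 fold change of 1.25 (SE 0.242, adjusted p = 0.00428). The times did not overlap in any of the 4 genes.

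Several of the other large rises are genes of macrophages and other blood cells. Aif1, a cytoskeletal protein of macrophages, ranged from 6.38 to 10.9 CPM (median 7.57) at 20 weeks and from 13.6 to 40.2 CPM (median 28.3) at 34 weeks, a log2 fold change of 1.66 (SE 0.221, adjusted p = 0.000697). The Fc receptor genes Fcgr1 and Fcgr2b changed by 1.27 (adjusted p = 0.00389) and 1.11 (adjusted p = 0.000869), and the blood cell transcription factor Lyl1 by 1.45 (adjusted p = 0.00325). Wfdc17 changed by 1.36 (adjusted p = 0.00301), and its 34 week values ran from 41.97 to 146.6 CPM. These rises ran beside the macrophage marker sum, whose median was 1.64-fold higher at 34 weeks, and its part in them was not tested. In the fit with that marker mean as a covariate Aif1, Fcgr1, Fcgr2b, Lyl1 and Wfdc17 had log2 differences of 1.24, 0.81, 0.83, 0.82 and 1.25 (adjusted p = 0.00292, 0.0233, 0.00423, 0.0111 and 0.0137), although Aif1 and Fcgr1 are themselves among the markers averaged. Smtnl2, Ppfia4 and the matrix protein Tgfbi rose by 1.54 (adjusted p = 0.00364), 1.32 (adjusted p = 0.00301) and 1.03 (adjusted p = 0.00543).

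**Figure D2:**
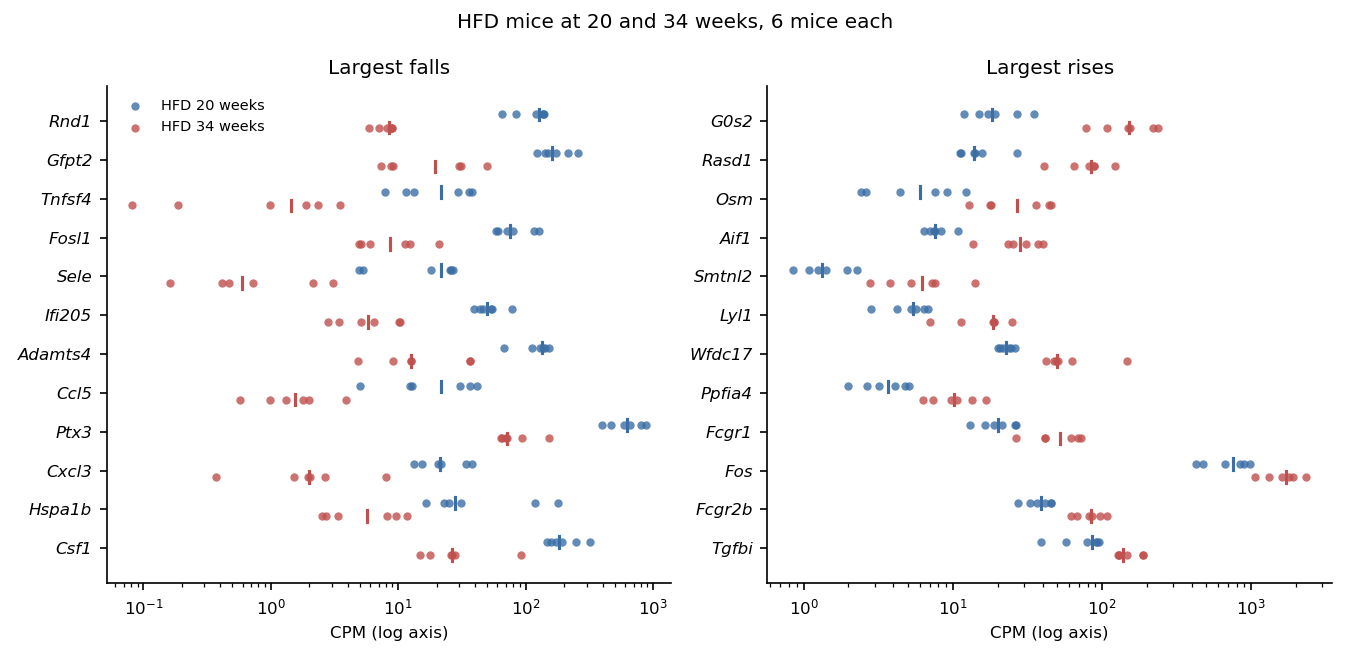
CPM of the 12 largest falls and the 12 largest rises among DEGs whose mice did not overlap, on a log axis, with a point for each HFD mouse and the median of 6 mice as a bar. Rnd1 lay between 64.6 and 140.1 CPM at 20 weeks and between 5.88 and 8.96 at 34 weeks, and G0s2 between 11.9 and 35.1 and between 77.9 and 238 CPM.

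Most chemokines and cytokines that passed the test fell. Of 31 tested, 14 fell and 4 rose, a share of 45.2% lower against 11.5% over all genes, and their median log2 fold change was -0.79 against 0.07 over all genes. Ccl2, which recruits monocytes, ranged from 372 to 617 CPM (median 461) at 20 weeks and from 97.8 to 194 CPM (median 122) at 34 weeks, a log2 fold change of -1.88 (SE 0.168, adjusted p = 8.96e-05), without overlap. Il6, a cytokine of the acute phase, ranged from 58.9 to 185 CPM (median 139) at 20 weeks and from 12.7 to 43.05 CPM (median 17.9) at 34 weeks, a log2 fold change of -2.38 (SE 0.354, adjusted p = 0.00116), also without overlap. Tnf and Il1b, the main cytokines of activated macrophages, were more variable: Tnf ranged from 615 to 1520 CPM (median 934) at 20 weeks and from 125 to 898 CPM (median 222) at 34 weeks and Il1b from 306 to 1564 CPM (median 819) at 20 weeks and from 48.8 to 905 CPM (median 153) at 34 weeks. Both changes passed the test, at -1.84 (adjusted p = 0.0121) and -1.94 (adjusted p = 0.0385), while single 34 week mice reached the 20 week range. Ccl4, another macrophage chemokine, changed by -2.51 (adjusted p = 0.00320). The members that rose were Cxcr4, the receptor of Cxcl12, at 1.43 (adjusted p = 0.0133), Ccl8 at 1.32 (adjusted p = 0.0261), Ccl6 at 0.61 (adjusted p = 0.0380) and Il18 at 0.49 (adjusted p = 0.0300). With the macrophage marker mean as a covariate 18 members were lower and 1 higher.

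Some genes induced by interferon and of antioxidant metabolism fell. Among 28 interferon-stimulated genes 10 fell (35.7%) and 1 rose (3.57%), with a median of -0.17. Over all genes 11.5% fell and 17.3% rose. Isg15, a ubiquitin-like modifier, ranged from 7.29 to 54.4 CPM (median 27.3) at 20 weeks and from 3.99 to 6.29 CPM (median 5.28) at 34 weeks, a log2 fold change of -2.02 (SE 0.418, adjusted p = 0.00568). The sensor of viral RNA Ifih1 changed by -1.71 (adjusted p = 0.00294), Oasl1 by -2.38 (adjusted p = 0.00645) and Ifit1 by -2.19 (adjusted p = 0.0131). The 20 week mice themselves were spread widely in these genes, for example from 3.72 to 77.0 CPM in Ifit1, where the 34 week mice lay between 3.33 and 5.65 CPM. Bst2, a membrane protein that holds back virus particles, rose by 0.43 (adjusted p = 0.0375), and the regulator Irf7 was at -0.18 (adjusted p = 0.366). Of 28 genes of glutathione and antioxidant metabolism 6 fell (21.4%) and 3 rose (10.7%). Targets of Nrf2 that fell included the cystine carrier Slc7a11 at -1.40 (adjusted p = 0.0124), Srxn1 at -0.89 (adjusted p = 0.00287) and Txnrd1 at -0.87 (adjusted p = 0.00487), whereas Nqo1 was at 0.19 (adjusted p = 0.444). Gpx3, the secreted glutathione peroxidase, changed by -1.15 (adjusted p = 0.00936), and the peroxiredoxin of the endoplasmic reticulum Prdx4 rose by 0.52 (adjusted p = 0.00870). Chac1, a glutathione-degrading enzyme induced by Atf4, changed by -1.57 (adjusted p = 0.00178) in a list of 25 unfolded protein response genes of which 2 fell (8%, against 11.5% over all genes) and 3 rose.

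Immediate early genes did not move as a group. Of 23 tested 4 fell (17.4%) and 1 rose (4.35%), against 11.5% and 17.3% over all genes, and the list's median was -0.08. Fos rose as given above, Fosl1 and Myc fell, Myc by -1.52 (adjusted p = 0.000149), and Jun and Egr1 were at -0.09 (adjusted p = 0.640) and -0.08 (adjusted p = 0.793). Of 18 clock genes 4 fell (22.2%) and 2 rose (11.1%), with Per1 at 1.21 (adjusted p = 0.0163) and Per2 at -1.19 (adjusted p = 0.0163). Per1 is also a glucocorticoid target, and of 15 such genes 4 fell (26.7%) and 2 rose (13.3%). Zbtb16 changed by -1.58 (adjusted p = 0.00212) and Pdk4 by -0.87 (adjusted p = 0.0498), the latter with a 20 week value of 1132 CPM in mouse 4 that stood far from the others of its group.

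Most matrix genes that passed the test fell, while Mmp9, 1 gene of collagen processing and Tgfbi, counted with the TGF-beta genes, rose. Of 23 collagens 9 fell and none rose, of 40 matrix glycoproteins and proteoglycans 17 fell and none rose, and of 23 matrix proteases and inhibitors 10 fell and 1 rose. Their medians were -0.47, -0.57 and -0.83, and the shares that fell were 39.1%, 42.5% and 43.5%, against 11.5% over all genes. Thbs1, an activator of latent TGF-beta, ranged from 2622 to 4150 CPM (median 2852) at 20 weeks and from 360.4 to 1095 CPM (median 648) at 34 weeks, a log2 fold change of -2.25 (SE 0.233, adjusted p = 0.000168). Tnc, a matrix glycoprotein of tissue repair, ranged from 36.2 to 84.5 CPM (median 51.7) at 20 weeks and from 5.13 to 30.3 CPM (median 7.55) at 34 weeks, a log2 fold change of -2.36 (SE 0.381, adjusted p = 0.00176). The times did not overlap in either. Postn, a matrix protein of fibroblasts, changed by -1.64 (adjusted p = 0.0118), the laminin chain Lama2 by -1.74 (adjusted p = 0.00629) and the fibrillar collagen Col3a1 by -1.21 (adjusted p = 0.0211). Col11a2 and Col14a1 changed by -1.45 (adjusted p = 0.00244) and -1.28 (adjusted p = 0.0233). Loxl2, which cross-links collagen, changed by -1.06 (adjusted p = 0.00843). The list of 18 genes for collagen processing had 5 lower (27.8%) and 1 higher (5.56%, against 17.3% over all genes).

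Beside these falls the fibroblast markers Pdgfra, Clec3b and Dcn changed by -1.10 (adjusted p = 0.0243), -1.04 (adjusted p = 0.00645) and -0.69 (adjusted p = 0.0221). They were the only 3 of 13 members that passed, 23.1% lower against 11.5% over all genes, with none higher. The part of fibroblasts in the matrix genes was not tested. The transcripts that fell were also long, a feature set out with the ribosomal proteins. With the trend of transcript length removed 8 collagens and 11 matrix glycoproteins were lower and none higher, and with the macrophage marker mean as a covariate 9 and 18 were lower and 1 collagen higher.

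Collagen VI, the main collagen around adipocytes, is built mainly of 3 chains. Col6a1 ranged from 286 to 676 CPM (median 540) at 20 weeks and from 189 to 308 CPM (median 275) at 34 weeks, a log2 fold change of -0.96 (SE 0.202, adjusted p = 0.00591). Col6a2 ranged from 298 to 708 CPM (median 548) at 20 weeks and from 240.2 to 450.1 CPM (median 366) at 34 weeks, a log2 fold change of -0.58 (SE 0.202, adjusted p = 0.0450). Col6a3 ranged from 128 to 342 CPM (median 226) at 20 weeks and from 116 to 314 CPM (median 183) at 34 weeks, a log2 fold change of -0.24 (SE 0.242, adjusted p = 0.472). The first pair passed the test and the third chain did not, although the difference among the chains was not tested and all 3 overlapped between the times. Col6a5, another collagen VI gene, changed by -1.54 (adjusted p = 0.00624), also with overlap.

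A set of fibrosis genes had also been chosen for qPCR, a choice that is not independent of these samples. Of its 16 genes tested 5 fell and 1 rose, where 11.5% of all genes fell and 17.3% rose. Among the falls were Itga5 at -1.84 (adjusted p = 0.00325), Mmp2 at -1.15 (adjusted p = 0.0161), Timp1 at -1.51 (adjusted p = 0.00311) and Tnc, with Mmp9 higher by 0.62 (adjusted p = 0.0420) at a low level of 2.36 to 6.83 CPM. Timp1, an inhibitor of matrix proteases, ranged from 11.7 to 38.6 CPM (median 26.6) at 20 weeks and from 4.11 to 11.3 CPM (median 9.61) at 34 weeks without overlap. Col1a1, Col4a1, Fn1, Sparc and Acta2 had log2 fold changes of -0.43, -0.24, -0.57, 0.15 and -0.23, with adjusted p of 0.265, 0.438, 0.259, 0.693 and 0.715. Tgfb1, Tgfbr1, Tgfbr2 and Mmp11 were at 0.22, -0.82, -0.09 and -0.41, Tgfbr1 with an adjusted p of 0.0508. Inhba was below the filter, with means of 2.00 and 0.437 CPM.

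Integrins and genes of the SRF and Hippo pathways fell where they passed, whereas the other lists of receptors and signalling genes held falls and rises. Falls made up 23.5% of integrins, 42.9% of SRF and Hippo genes, 25% of TGF-beta genes and 37.5% of hypoxia and angiogenic signals. Rises made up 12.5% of TGF-beta genes and 6.25% of hypoxia and angiogenic signals. Over all genes 11.5% fell and 17.3% rose. Of 17 integrins 4 fell and none rose, with Itga5, the receptor of fibronectin, ranging from 306 to 425 CPM (median 389.7) at 20 weeks and from 46.6 to 236 CPM (median 100.6) at 34 weeks and Itgav changing by -1.50 (adjusted p = 0.00284). Of 14 genes of the SRF and Hippo pathways 6 fell, among them the coactivator Wwtr1 (TAZ) at -0.73 (adjusted p = 0.0157) and its partner Tead1 at -1.33 (adjusted p = 0.00773). Of 24 TGF-beta genes 6 fell and 3 rose, with Fst, which binds activins, at -1.50 (adjusted p = 0.00150), the inhibitory Smad7 at -0.86 (adjusted p = 0.0125), the receptor Bmpr2 at -1.08 (adjusted p = 0.0187) and the ligand Gdf3 at 1.17 (adjusted p = 0.0177). Of 60 genes of the actin cytoskeleton and focal adhesions 9 fell (15%) and 6 rose (10%), against 11.5% and 17.3% over all genes. The falls included the kinase Src at -1.37 (adjusted p = 0.000371) and the adhesion protein Vcl at -0.80 (adjusted p = 0.00310), whereas no actin cytoskeleton gene rose after TMM factors. The proteases Mmp13, Plat and Adamts1 changed by -2.01 (adjusted p = 0.00195), -1.84 (adjusted p = 0.00361) and -1.60 (adjusted p = 0.000793). Hypoxia and angiogenic signals had 6 falls and 1 rise of 16, with Adm, a vasodilator peptide, ranging from 62.1 to 114 CPM (median 93.9) at 20 weeks and from 15.9 to 43.1 CPM (median 19.2) at 34 weeks, a log2 fold change of -1.96 (SE 0.230, adjusted p = 0.000314). Hif1a and Pgf changed by -0.68 (adjusted p = 0.0102) and -1.66 (adjusted p = 0.00927), and Vegfa was at -0.36 (adjusted p = 0.0967).

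**Figure D3:**
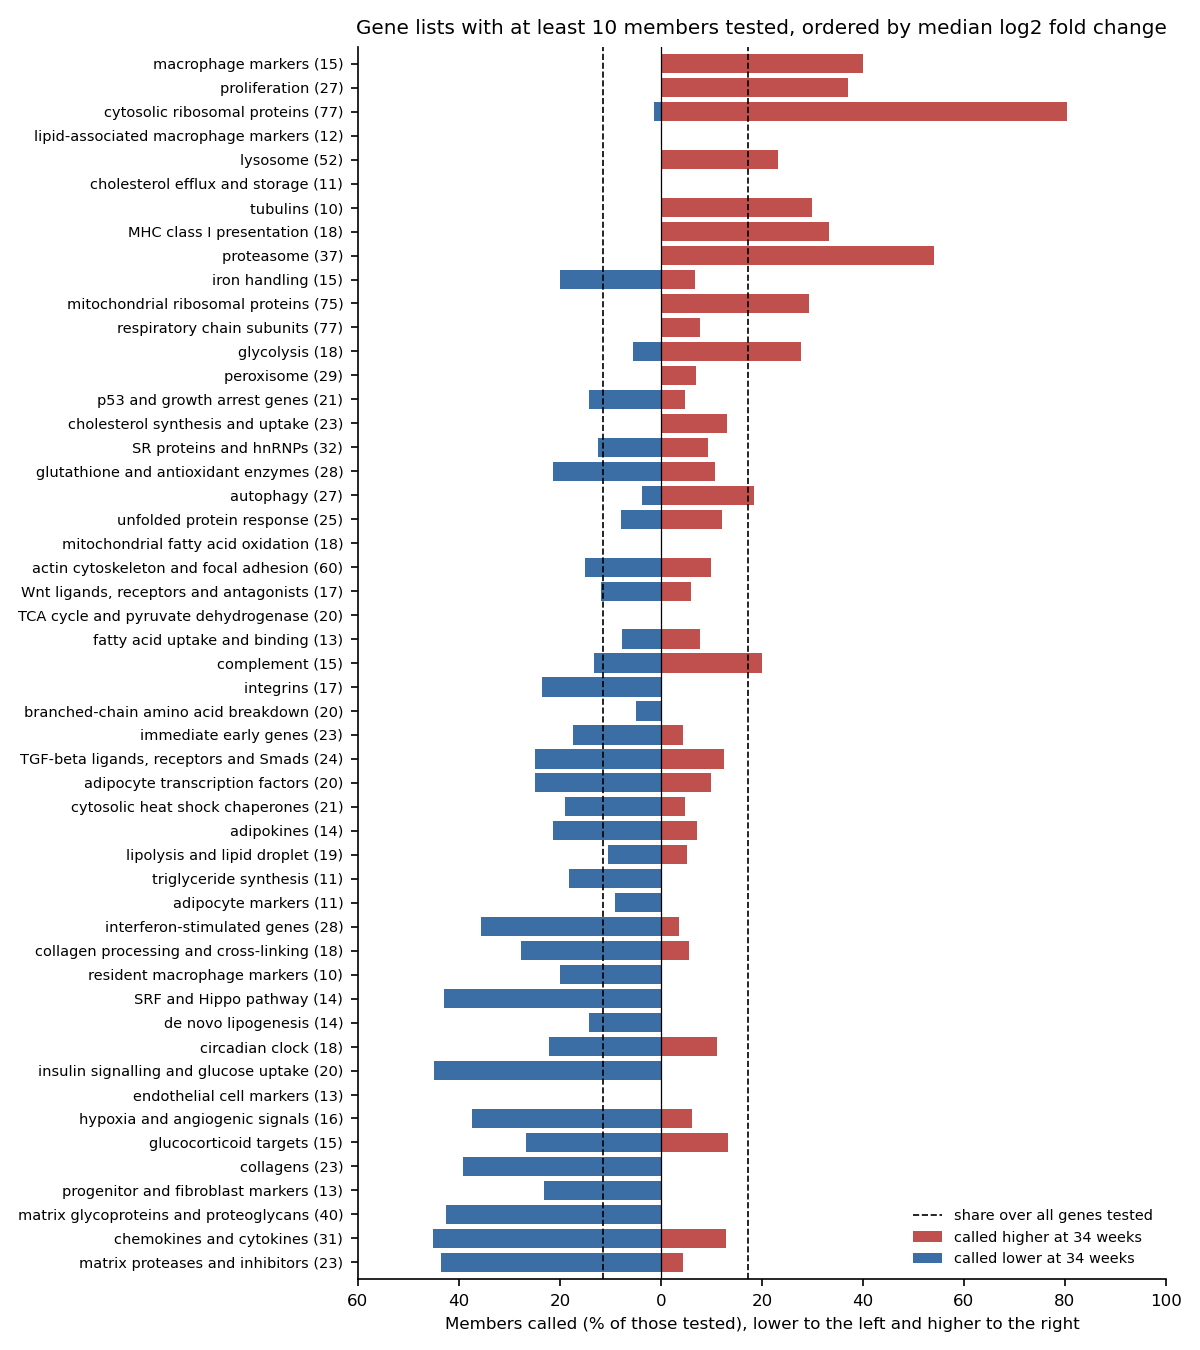
Share of the tested members of each gene list that were called higher (right) or lower (left) at 34 weeks, with the number tested in brackets, lists ordered by their median log2 fold change and the shares over all genes, 17.3% and 11.5%, as dashed lines. Cytosolic ribosomal proteins reached 80.5% higher, and chemokines and cytokines 45.2% lower.

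Some macrophage marker genes rose. Of 15 macrophage markers 6 rose (40% against 17.3% over all genes) and none fell, with a median of 0.69. Those that rose included the complement genes C1qa, C1qb and C1qc. C1qa, a subunit of the first complement component, ranged from 315 to 595 CPM (median 386) at 20 weeks and from 429 to 1499 CPM (median 711) at 34 weeks, a log2 fold change of 0.96 (SE 0.266, adjusted p = 0.0193), and C1qb and C1qc changed by 0.81 (adjusted p = 0.0363) and 0.85 (adjusted p = 0.0311). Cd68 and Csf1r, which mark macrophages in general, were at 0.57 (adjusted p = 0.167) and 0.51 (adjusted p = 0.178). None of the 12 markers of lipid-associated macrophages passed in either direction, Trem2 being at 0.79 (adjusted p = 0.0681). Of 10 markers of resident macrophages 2 fell (20% against 11.5% over all genes), Cd163 by -1.03 (adjusted p = 0.0314) and Lyve1 by -1.05 (adjusted p = 0.0253). Mrc1, the most abundant of them, was at 0.25 (adjusted p = 0.357). The summed CPM of resident macrophage markers was 666 to 1249 (median 720) at 20 weeks. At 34 weeks it was 574 to 1241 CPM (median 1062), so the sum did not show the direction of those falls. Of 7 genes of MHC class II 3 rose (42.9%), among them the regulator Ciita at 0.83 (adjusted p = 0.0490) and the peptide loader H2-DMa at 0.94 (adjusted p = 0.0231). The more abundant Cd74 was at 0.58 (adjusted p = 0.278). It ranged from 884 to 1921 CPM (median 1141) at 20 weeks and from 637 to 3187 CPM (median 2447) at 34 weeks. Of 52 lysosome genes 12 rose (23.1% against 17.3% over all genes) and none fell, with 4 higher after TMM factors and 1 higher and 1 lower with the length trend removed. The 12 that rose included Tfeb, a regulator of lysosome genes, at 0.87 (adjusted p = 0.00839), the protease Lgmn at 0.73 (adjusted p = 0.0423) and Grn at 0.62 (adjusted p = 0.0493).

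Of 27 proliferation genes 10 rose (37% against 17.3% over all genes) and none fell. Birc5 changed by 0.95 (adjusted p = 0.0185), Stmn1 by 0.83 (adjusted p = 0.0288) and the cell cycle kinase Cdk1 by 0.75 (adjusted p = 0.0324), and Mki67, a marker of cycling cells, was at -0.96 (adjusted p = 0.0601). These gene groups ran beside the macrophage marker sum. With the macrophage marker mean as a covariate none of the MHC class II genes passed, of the lysosome genes 1 was higher and 5 lower, and of the proliferation genes 1 was higher and 1 lower. The immunoproteasome subunits Psmb8, Psmb9 and Psmb10 rose by 0.70 (adjusted p = 0.00568), 0.83 (adjusted p = 0.00786) and 0.61 (adjusted p = 0.00592) without overlap, and with the covariate their values were 0.69, 0.97 and 0.61 (adjusted p = 0.0178, 0.0112 and 0.0178). Of 18 genes of MHC class I presentation 6 rose (33.3%) and none fell.

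Genes for making and degrading proteins rose by small amounts in many members. Of 77 cytosolic ribosomal proteins 62 rose and 1 fell, a share of 80.5% against 17.3% over all genes, with a median of 0.42. Rps29 ranged from 234 to 317 CPM (median 244) at 20 weeks and from 302 to 545 CPM (median 356) at 34 weeks, a log2 fold change of 0.54 (SE 0.137, adjusted p = 0.0133), and Rpl11 ranged from 227 to 256 CPM (median 232) at 20 weeks and from 236 to 376 CPM (median 304) at 34 weeks, a log2 fold change of 0.34 (SE 0.102, adjusted p = 0.0256). The 2 times overlapped in both and in all but 4 of the 77 genes, while 7.56% of all genes were higher without overlap. By overlap the list thus did not stand out from all genes. The 1 member that fell was Rpl24 at -0.62 (adjusted p = 0.00700). Ribosomal protein genes have many processed copies in the genome, so single members are uncertain. Of 37 proteasome subunits 20 rose (54.1%) and none fell, with Psma2 at 0.41 (adjusted p = 0.00928). Of 75 mitochondrial ribosomal proteins 22 rose (29.3%) and none fell, with Mrps18c at 0.58 (adjusted p = 0.00761). Of 77 respiratory chain subunits coded in the nucleus 6 rose (7.79% against 17.3% over all genes), Atp5g1 by 0.44 (adjusted p = 0.00629), with 2 higher after TMM factors and 1 with the length trend removed. None of the 20 genes of the citric acid cycle or of the 18 genes of mitochondrial fatty acid oxidation passed the test. The macrophage marker mean as a covariate moved these lists the other way. With it 24 respiratory chain subunits and 49 mitochondrial ribosomal proteins were higher. So were 5 citric acid cycle genes and 7 fatty acid oxidation genes, and no member of these 4 lists was lower.

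The rises in these lists without the covariate ran together with transcript length. DEGs that rose had a median transcript length of 2439 bases and those that fell 4999.5 bases, against 3513 bases over all genes with a length. In the shortest of 4 equal groups of genes, 360 to 2310 bases, 32.3% rose and 3.85% fell. In the longest, 4974 bases and more, 4.99% rose and 23.2% fell, and the median log2 fold changes of the groups were 0.24, 0.13, 0.03 and -0.18. The same order was present in CD mice between 20 and 34 weeks, with medians of 0.41, 0.26, 0.10 and -0.10. With the length trend removed within each mouse, 844 genes were higher and 1138 lower. The cytosolic ribosomal proteins were then 2 higher and 1 lower (27 and 1 after TMM factors, 3 and 1 with the macrophage marker mean as a covariate), the proteasome 6 and 1, and the mitochondrial ribosomal proteins 10 and 2. RNA quality values of the libraries were not analysed here, and its part in the length trend was not tested.

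Few of the adipocyte genes of lipid storage passed the test, and more of those of insulin signalling did. Adipoq and Lep, the 2 main adipokines, were at -0.10 (adjusted p = 0.788) and 0.08 (adjusted p = 0.880), with Lep ranging from 1008 to 3911 CPM (median 2443) at 20 weeks and from 1136 to 3733 CPM (median 2600) at 34 weeks. The adipogenic regulators Pparg and Cebpa were at 0.33 (adjusted p = 0.0879) and 0.30 (adjusted p = 0.0783). Of 20 adipocyte transcription factors 5 fell (25%) and 2 rose (10%), against 11.5% and 17.3% over all genes. Cebpd was at -1.03 (adjusted p = 0.00299), Stat5a at -0.91 (adjusted p = 0.00463), the glucose sensor Mlxipl (ChREBP) at -0.77 (adjusted p = 0.0182) and the coactivator Ppargc1b at 0.74 (adjusted p = 0.00466). Agt, the precursor of angiotensin, changed by -1.44 (adjusted p = 0.00545), Angptl4, an inhibitor of lipoprotein lipase, by -0.86 (adjusted p = 0.0186), and Igf1 rose by 0.35 (adjusted p = 0.0211). Of 9 acute phase genes 2 fell (22.2%), among them Cp at -1.01 (adjusted p = 0.00448), while Saa3 and Hp were at -0.30 and 0.30.

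Of 19 genes of lipolysis and lipid droplets 1 rose (5.26%) and 2 fell (10.5%), against 17.3% and 11.5% over all genes. Adrb3, the adrenergic receptor of adipocytes, ranged from 139 to 357 CPM (median 206) at 20 weeks and from 44.7 to 107 CPM (median 67.97) at 34 weeks, a log2 fold change of -1.63 (SE 0.247, adjusted p = 0.00125). G0s2 rose as above, Pde3b, which degrades cAMP after insulin, changed by -0.59 (adjusted p = 0.0205), and the lipase Pnpla2 itself was at -0.51 (adjusted p = 0.0998). Neither Adrb3 nor G0s2 overlapped between the times, while the 11 adipocyte markers together held 1 fall, Adrb3, and no rise. Of 14 genes of fatty acid synthesis 2 fell (14.3%). Acacb, the acetyl-CoA carboxylase at mitochondria, ranged from 72.0 to 328 CPM (median 99.0) at 20 weeks and from 26.2 to 56.1 CPM (median 40.6) at 34 weeks, a log2 fold change of -1.58 (SE 0.327, adjusted p = 0.00566), and Fasn was at -0.37 (adjusted p = 0.393). Gpam, the first enzyme of triglyceride synthesis, changed by -0.63 (adjusted p = 0.0439).

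Of 20 genes of insulin signalling and glucose uptake 9 fell and none rose, 45% against 11.5% over all genes. Irs2, an adaptor of the insulin receptor, ranged from 135 to 337 CPM (median 181) at 20 weeks and from 42.1 to 133 CPM (median 74.1) at 34 weeks, a log2 fold change of -1.27 (SE 0.272, adjusted p = 0.00652). Slc2a1, the basal glucose carrier, ranged from 68.4 to 109.8 CPM (median 83.6) at 20 weeks and from 23.5 to 54.6 CPM (median 39.8) at 34 weeks, a log2 fold change of -1.19 (SE 0.191, adjusted p = 0.00176). Both were without overlap. Insr, the insulin receptor, changed by -0.56 (adjusted p = 0.0307), and Hk2, a hexokinase of insulin-sensitive tissue counted with glycolysis, by -1.26 (adjusted p = 0.00263). The insulin-responsive carrier Slc2a4 was at -0.03 (adjusted p = 0.904). With the length trend removed 6 members were lower and 1 higher, and with the macrophage marker mean as a covariate 6 were lower and 4 higher, Slc2a4 then being higher by 0.38 (adjusted p = 0.0203).

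The change in HFD mice resembled the change over the same weeks in CD mice, which share no mouse with it. In CD mice 4446 of the 10629 genes (41.8%) were higher and 2173 (20.4%) lower at 34 weeks, and the 2 sets of log2 fold changes had a Pearson correlation of 0.705 and a Spearman correlation of 0.698 across genes, which are not independent replicates. Of the HFD DEGs that rose 97.3% were above 0 in CD mice, against 62.8% of all genes, and of those that fell 88.4% were below 0, against 37.2%. Both arms were compared at the same times of harvest, so what they share cannot be told apart from age. Among the named falls, Rnd1, Ptx3 and Fosl1 changed in CD mice by -4.96, -3.53 and -3.18, and G0s2 rose there by 3.60. Of the 15 macrophage markers 12 were higher and 1 lower in CD mice, with a median of 1.99 against 0.69 in HFD mice. Of the 12 lipid-associated macrophage markers 10 were higher and 1 lower there, with a median of 2.09 against 0.37. Of the 27 proliferation genes 23 were higher and none lower in CD mice.

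The interaction term, which is the change in HFD minus the change in CD mice in a fit of all 38 mice, passed in 1081 genes, 415 positive (3.9%) and 666 negative (6.27%). Without mouse 3 of the 20 week HFD group 435 were negative. After TMM factors the split was 559 positive and 568 negative. A negative term means a smaller rise or a larger fall in HFD mice, or a fall there beside a rise in CD mice. No macrophage marker had a term that passed, and 4 of the 12 lipid-associated macrophage markers had a negative one.

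Collagens had 10 negative and no positive terms, and their median change was -0.47 in HFD and 0.74 in CD mice. Col6a1 and Col6a2 rose in CD mice by 1.77 and 2.05 (adjusted p = 2.86e-05 and 9.73e-06), giving terms of -2.74 (adjusted p = 0.000631) and -2.64 (adjusted p = 0.00181). Col1a1 rose in CD mice by 3.09 (adjusted p = 5.77e-06), with a term of -3.52 (adjusted p = 0.00376). Col3a1 and Col14a1 had terms of -1.92 and -2.36. Src, which fell in HFD and rose by 0.68 in CD mice, had a term of -2.04 (adjusted p = 5.88e-06). Gpr50 moved in opposite directions, by -1.19 and 2.11.

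Tnfsf4 and Meg3 fell in HFD mice while CD mice held lower levels at both times. Tnfsf4 had means of 22.6 and 1.49 CPM at 20 and 34 weeks of HFD, 0.216 at 8 weeks, and 0.573 and 0.193 CPM in CD mice at 20 and 34 weeks, with a term of -2.78 (adjusted p = 0.000182). It met the filter through its 20 week HFD values. CD levels this low leave little room to fall on the log2(CPM + 1) scale, so its term cannot compare the falls on the diets. Meg3, a maternally expressed long non-coding RNA, ranged from 6.61 to 20.1 CPM (median 12.1) at 20 weeks and from 0.163 to 3.06 CPM (median 0.841) at 34 weeks in HFD mice, with a term of -2.37 (adjusted p = 0.00376). Meg3 also met the filter through its 20 week HFD values. Its lower CD levels left little room to fall too, so its term cannot compare the falls on the diets either. Lep, level between the HFD times, rose in CD mice by 2.41, a term of -2.33 (adjusted p = 0.0304).

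Several positive terms were those of genes that fell further in CD mice, although Igf1 and Mmp9, which rose in HFD mice, also had positive terms. The GTPase Rab15 changed by -4.06 in CD and changed by -0.74 (adjusted p = 0.0326) in HFD mice, a term of 3.33 (adjusted p = 9.96e-08). Il6 changed by -4.52 in CD mice, a term of 2.14 (adjusted p = 0.0229). Its means were 254 CPM in CD and 126 CPM in HFD mice at 20 weeks, and 10.8 and 23.6 CPM at 34 weeks, so the order of the diets was opposite at the 2 times. The zinc and iron carrier Slc39a14, the protease inhibitor Serpina3f and Adamts4 changed in HFD by -1.25 (adjusted p = 0.000217), -2.25 (adjusted p = 0.000829) and the value above, with terms of 2.00, 1.94 and 1.97. Hif1a, Hk2 and Slc2a1 likewise fell further in CD mice, with terms of 1.48, 1.37 and 1.24.

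The level at 8 weeks places these changes in time, with the 20 week mice shared between both steps. In HFD mice Tnf had risen by 3.58 and Il1b by 4.14 from 8 to 20 weeks before the falls given above, and Il6, Ccl4 and Mmp13 by 2.89, 3.14 and 3.45. In CD mice Il6 ranged from 7.58 to 28.2 CPM at 8 weeks, from 76.2 to 484 at 20 and from 2.20 to 37.4 at 34 weeks. Il6 was thus highest at 20 weeks on both diets. CD values of Tnf were 9.85 to 80.2, 69.8 to 468 and 15.2 to 411 CPM at the same times. The median of the 31 chemokines and cytokines was 1.62 from 8 to 20 and -0.79 from 20 to 34 weeks. The macrophage markers had medians of 1.96 and 0.69, and the lipid-associated macrophage markers 2.99 and 0.37. Ptx3, Thbs1, Fosl1 and Myc differed by 0.53, -0.18, 0.49 and 0.08 between 8 and 20 weeks, with adjusted p of 0.374, 0.770, 0.409 and 0.839. G0s2 differed by -1.58 (adjusted p = 0.000728) before it rose.

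**Figure D4:**
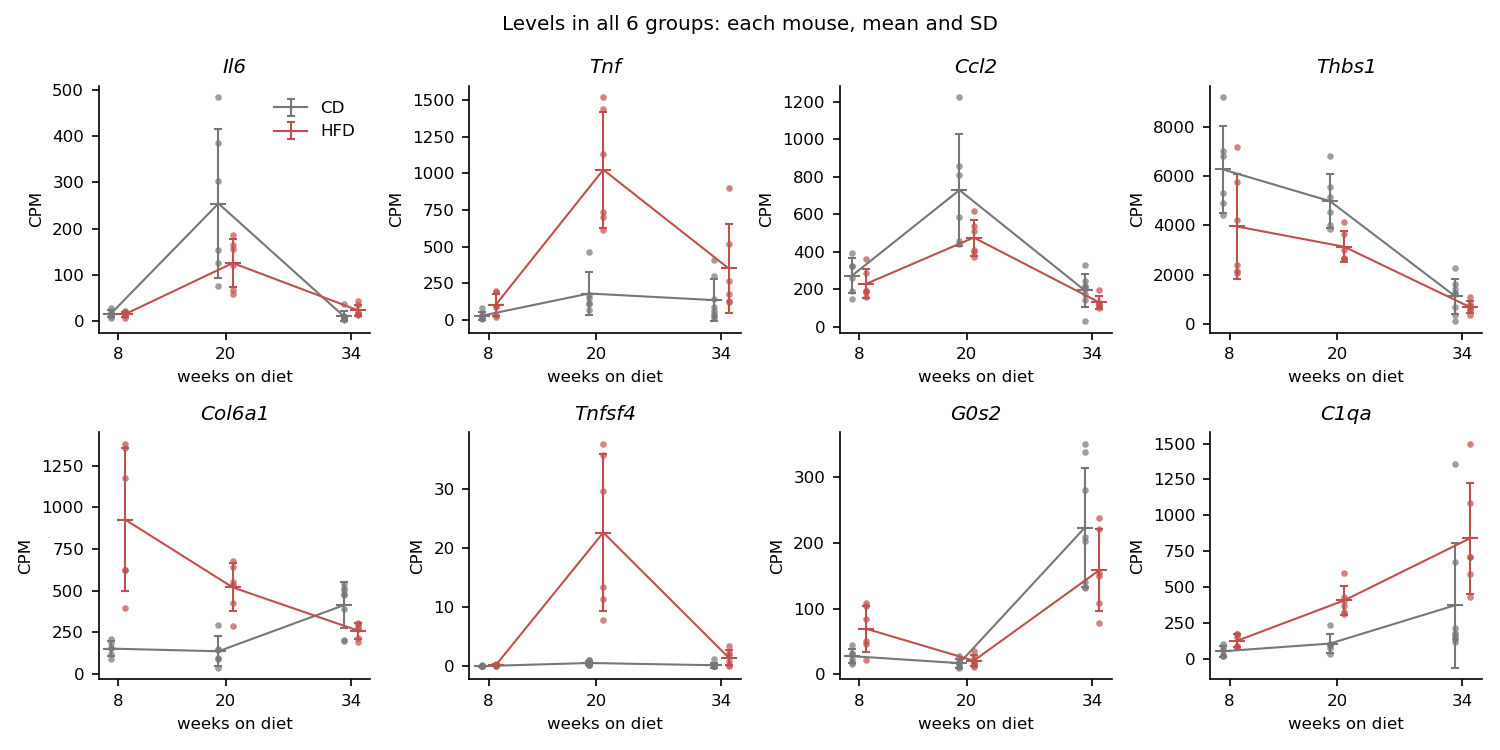
CPM of 8 genes against weeks on the diet in CD and HFD mice, with a point for each mouse and the mean and SD of each group. HFD means of Tnfsf4 were 0.216, 22.6 and 1.49 CPM at 8, 20 and 34 weeks, and Il6 means at 20 weeks were 126 CPM in HFD and 254 CPM in CD mice.

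**Figure D5:**
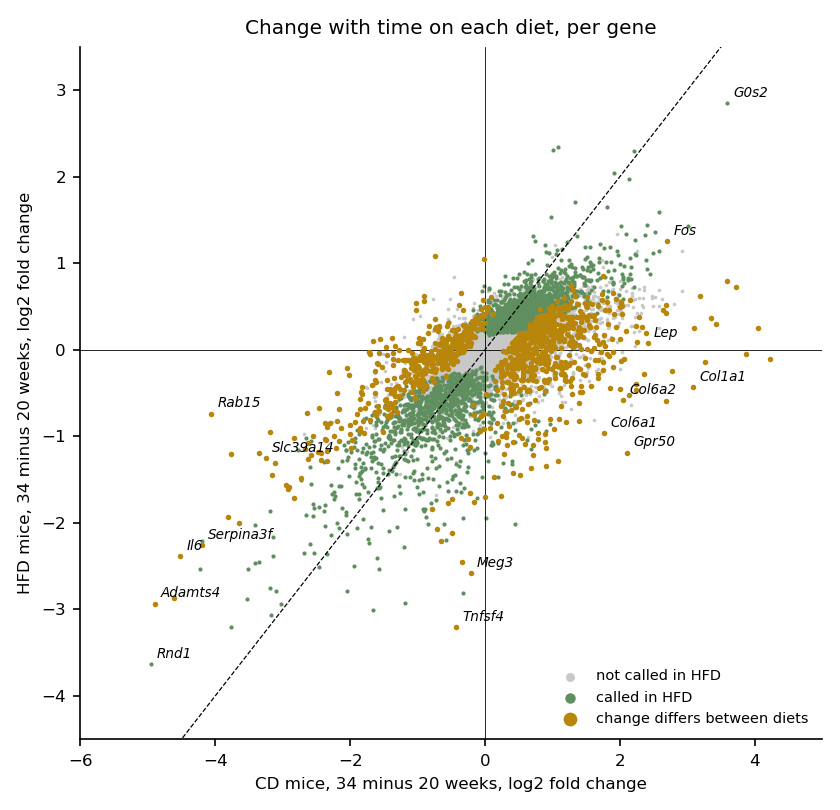
Log2 fold change from 20 to 34 weeks in HFD mice against that in CD mice for 10629 genes, with genes whose change differed between the diets in gold, other DEGs of HFD mice in green, other genes in grey and the line of equal change dashed. Rnd1 and G0s2 changed the same way on both diets, whereas Col6a1 and Tnfsf4 lie far from the line, Tnfsf4 with CD levels too low to fall much.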

How the data were processed

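RNA of the floating adipocyte fraction of PGWAT was sequenced from 38 mice, 6 to 8 per diet and time, and the labels' separate mice were the replicates. Per the submitters' processing notes, reads were aligned with STAR (2.5 and 2.5.2b are named) to GRCm38 and assigned to genes with featureCounts of Subread 1.5.1, and edgeR and limma were used, and the authors deposited CPM (reads scaled to a fixed total), with 3 technical replicates merged into 1 column per mouse. Each deposited CPM column has the same sum, so no TMM factor is visible. Whole reads were recovered from the CPM, 100% of values within 0.1 reads. The strand setting of the counting and RNA quality were not given in the sources used here. Gene names were used as in the file, where 26 were date symbols, and 27250 genes (93.5%) had a RefSeq position on GRCm38.

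The main comparison used limma 3.58.1 in R 4.3.3 with a mean-variance trend on log2(CPM + 1) of the 12 HFD mice, Benjamini-Hochberg adjustment over all 10629 genes and a threshold of 0.05, positive meaning higher at 34 weeks. Fold changes are on the log2(CPM + 1) scale, which understates the change of low genes. The difference between the diets was the interaction term in a fit of all 38 mice. Alternatives were edgeR 4.0.16 and DESeq2 1.42.0 on recovered reads, other scaling factors, pseudocounts and filters, reads thinned to the lowest depth, array weights, a replicate block, the mean of the macrophage markers as a covariate, leaving out each mouse, and trends of transcript length and GC content removed. The test was checked on simulated data. Intervals are not given for CPM, whose depth limits cover counting error only.

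Genes were named by rule: the 12 largest rises and falls among DEGs whose mice did not overlap, the first 3 detected members and up to 4 strongest DEGs per direction of each list, the qPCR genes, and the 5 largest interaction terms of each sign. The members and lists were chosen with earlier results of these data known. List genes that the file does not name, such as Ctgf, were not analysed here. Near-identical genes may share reads. Results for some genes are not reported here.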

Additional observations from a re-analysis of the deposited data

Results flagged for a closer look

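Of 344 groups of 6 mice looked at for genes and marker lists of the text, 14 (4.07%) held a mouse far from the other 5 by Dixon's criterion, where chance gives about 1 in 20. Mouse 4 of the 20 week group stood apart most often. It had 25.67 CPM of Acta2, 239.2 of Dcn, 675.7 of Fasn, 42.05 of Lama2, 490.9 of Pde3b, 19.07 of Pdgfra and 1132 of Pdk4, and its summed CPM was 271.6 for B cell and plasma cell markers and 135.9 for mural cell markers. In the same group mouse 3 had 67.33 CPM of Adamts4. At 34 weeks mouse 1 had 104.7 CPM of Ccl8 and 201.7 of Igf1, mouse 5 had 146.6 CPM of Wfdc17 and mouse 6 had 91.02 CPM of Csf1.

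The change from 20 to 34 weeks differed between HFD and CD mice in 28 of the 157 genes of the text by the interaction term (limma, adjusted p under 0.05), against 3.9% positive and 6.27% negative over all genes. Some of the 28 were named because their terms were among the largest, so their count says nothing about the genes of the text. The term, HFD minus CD on the log2 scale, was negative for the collagen genes Col14a1 (-2.361), Col1a1 (-3.52), Col3a1 (-1.922), Col6a1 (-2.738) and Col6a2 (-2.636), and for the matrix genes Loxl2 (-1.486) and Sparc (-1.13). It was also negative for Clec3b (-1.818), Fos (-1.455), Gpr50 (-3.302), Lep (-2.333), Meg3 (-2.367), Src (-2.044), Tnfsf4 (-2.782) and Trem2 (-2.792). CD levels of Tnfsf4 and Meg3 were too low to fall much. It was positive for Adamts4 (1.967), Cxcl3 (1.743), Hif1a (1.477), Hk2 (1.366), Igf1 (0.5044), Il6 (2.138), Mmp9 (1.526), Rab15 (3.325) and Serpina3f (1.944). Positive terms were also found for Slc2a1 (1.244), Slc39a14 (2.004), Srxn1 (1.463) and Stat5a (0.9421).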

How the results depend on the processing

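Of 3064 DEGs (1843 higher, 1221 lower), the number moved by over 1.5 times with array weights (4893, 2835 and 2058) and with at least a 2-fold change required as well (410, 54 and 356). It also moved by over 1.5 times with a replicate block (1674, 840 and 834) and with the transcript length trend removed, chosen after seeing the data (1982, of which 844 higher). Those higher were 1135 after TMM factors and 1065 after median-of-ratios factors. Leaving out 1 mouse gave 2039 to 3501 DEGs, 1140 to 2147 higher and 899 to 1566 lower. The lowest total, also moved by over 1.5 times, was without mouse 2 of the 20 week group. The interaction term passed in 3428 genes with array weights (1014 positive, 2414 negative), and without 1 HFD mouse in 733 to 1261, 298 to 494 positive and 435 to 767 negative, the fewest negative without mouse 3 of the 20 week group.

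The replicate numbers did not pair the mice. Correlations of same-numbered mice were from -0.32 to 0.0392, and 0 of 6 mice correlated best with its own number. With a replicate block 1674 genes passed (840 higher), and 1033 interaction terms.

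Of 231 named genes called, 222 stayed called in the same direction with array weights, 203 with edgeR, 221 with DESeq2, 161 with the length trend removed and 147 with the macrophage marker mean as a covariate. With that covariate 4 named genes not called before changed sign: Hk1 (-0.3882), Slc2a4 (0.3827), Tgfb1 (-0.487) and Tln1 (-0.4081), and the cause was not tested. The 34 week libraries were shallower, so low genes are less precise there.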

Other observations

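Other gene groups are set beside the shares over all genes. These were 17.3% higher and 11.5% lower in HFD mice, and 41.8% higher and 20.4% lower in CD mice. Of 20 genes for the breakdown of branched-chain amino acids 1 fell and none rose, while in CD mice 15 were lower and 1 higher. Only 3 of these 20 genes had an interaction term that passed, each of them positive. Of 23 genes of cholesterol synthesis and uptake 3 rose and none fell, against 15 higher and none lower in CD mice, and 7 had a negative interaction term. Of 18 glycolysis genes 5 rose (27.8%) and 1 fell, of 10 tubulins 3 rose (30%), of 27 autophagy genes 5 rose and 1 fell, and of 29 peroxisome genes 2 rose. Of 21 p53 and growth arrest genes 3 fell and 1 rose, of 15 iron handling genes 3 fell and 1 rose, and of 32 SR proteins and hnRNPs 4 fell and 3 rose. None of 11 genes of cholesterol efflux and storage and none of 5 browning genes passed.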
